A study of Homo sapiens with 18 samples.

Results

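WNT ligands reach the cell through Frizzled (FZD) proteins, multi-pass membrane receptors that bind WNT by a cysteine-rich domain, and through the coreceptors LRP5 and LRP6. When a WNT joins an FZD with LRP5 or LRP6, the cytoplasmic protein Dishevelled and the scaffold Axin are drawn to the membrane, β-catenin is no longer degraded, and target genes are transcribed. FZD proteins fall into subfamilies by sequence, among them FZD1 with FZD2 and FZD7, FZD5 with FZD8, and FZD3 with FZD6. FZD7 is abundant in human pluripotent stem cells and is used as a surface marker of that state. The genes described here are 10 receptor genes chosen by name, FZD1 to FZD8, LRP5 and LRP6. Of these, 9 are among the 10975 genes listed for the first WT series, and 3 (FZD5, FZD7 and FZD8) are among the 497 genes listed for the SP5 mutant experiment. FZD1 is listed in neither table.

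RNA-Seq was carried out on H1, a human embryonic stem cell line in wide use, grown in E8 medium and given 1 nM Wnt3a for 12, 24 or 48 h. The 0 h cells received the buffer in which Wnt3a is stored. Besides the first WT series there are a second WT series (WT Rep. 2) and the lines dZF1 and dZF2, each grown from 1 cell after CRISPR-Cas9 removed the part of SP5 that encodes the zinc fingers from both alleles. SP5 is a transcription factor of the SP/KLF family and a WNT target. Each series has 1 library at each time, and the read depth behind the deposited values is unknown. The first WT table gives RPKM (reads scaled to transcript length and to the reads mapped in the library) to 1 decimal for genes that reached an RPKM of 4 in at least 1 library. The mutant table gives every value as a ratio to the gene's highest RPKM in WT Rep. 2, for genes that the study had selected for a response to Wnt3a, so a change of such a gene over time is not independent evidence of its direction.

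The pluripotency markers were present at 0 h in the first WT series, with an RPKM of 294.6 for POU5F1, 238.3 for SOX2 and 1014.1 for LIN28A, while NANOG was at 3.3. The definitive endoderm markers SOX17, FOXA2, CXCR4, GATA6 and HHEX were all at least 2-fold higher at 48 h. Of the neural markers PAX6, SOX1 and OTX1 are not listed, and NES had an RPKM of 151.0 at 0 h and 189.2 at 48 h. Of the fibroblast markers COL3A1, DCN and LUM are not listed, COL1A1 was at 4.2 and 2.6, and COL1A2 at 13.8 and 24.1. WT Rep. 2 stood apart at 12 and 24 h. At 24 h SP5 was at 0.09 of the maximum of WT Rep. 2, against 0.67 of its own maximum in the first WT series. The 4 mesendoderm markers T, MIXL1, GSC and EOMES lay between 0.05 and 0.34, against 0.78 to 1.00. At 12 h SP5 was at 0.02 against 0.37, and these markers lay between 0 and 0.18, against 0.13 to 0.27. In dZF2 the same markers were at 1.80 to 6.16 times the WT maximum at 24 h, and in dZF1 at 0.42 to 0.94. SP5 RNA did not drop out in the clones, which reached 2.54 (dZF1) and 2.61 (dZF2) at 48 h against 1.00 in WT Rep. 2. These values cover the whole gene, so they do not check the deletion.

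FZD7 was the most abundant receptor gene in the first WT series at 0 h, and FZD5 had overtaken it by 48 h. RPKM of FZD7 was 135.5 before Wnt3a, 91.1 at 12 h, 75.5 at 24 h and 83.1 in the 48 h library. It was thus lower at each time with Wnt3a, and lowest at 24 h. FZD5, the receptor whose subfamily also holds FZD8, had an RPKM of 38.0, 32.4, 37.7 and 86.4 at the same times. Its level stayed between 32.4 and 38.0 through 24 h, and the high value is that of the 48 h library. FZD8 had an RPKM of 6.6, 3.7, 6.9 and 20.4, lowest at 12 h and highest at 48 h. On the level scale FZD7 was 3.57 times FZD5 at 0 h and 0.962 times FZD5 at 48 h. These are single libraries, and no spread is at hand to set beside the small gap between FZD5 and FZD7 at 48 h.

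FZD4, a receptor known for binding Norrin as well as WNT, was higher in each later library, with an RPKM of 5.4, 6.5, 7.1 and 12.9. FZD6 showed the same order at low level, from 4.9 through 5.7 and 6.5 to 8.0. FZD3, which with FZD6 is known from planar polarity, lay at 18.3, 19.1, 18.1 and 15.3, and was lowest at 48 h. FZD2, the listed relative of FZD7, barely moved, with an RPKM of 8.5, 8.7, 8.4 and 8.9. The coreceptors differed in level but not much over time. LRP6 had an RPKM of 34.2, 34.0, 31.1 and 33.6, and LRP5 of 10.1, 10.5, 10 and 12.6. At 0 h the order of level was FZD7, FZD5, LRP6, FZD3, LRP5, FZD2, FZD8, FZD4 and FZD6. At 48 h it was FZD5, FZD7, LRP6, FZD8, FZD3, FZD4, LRP5, FZD2 and FZD6. With 1 library at each time, neighbours in either order cannot be said to differ.

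**Figure D1:**
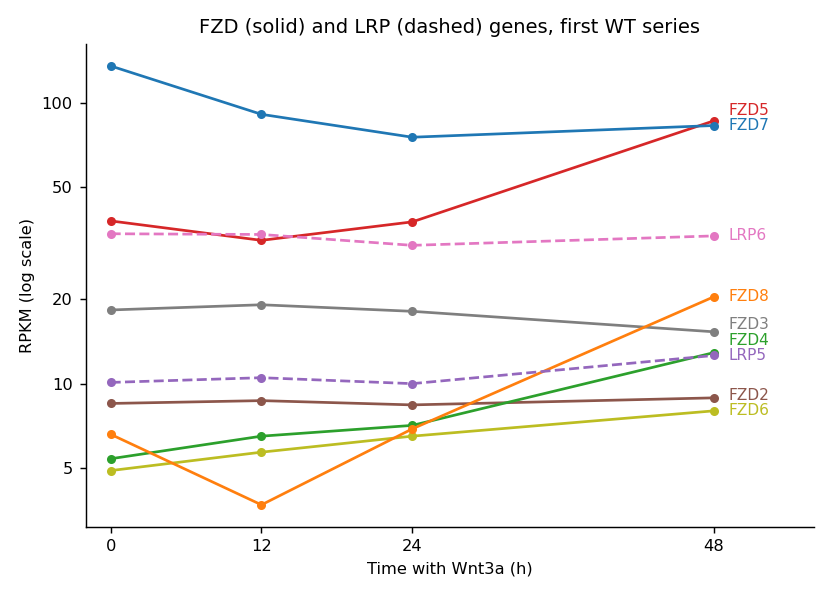
RPKM (log axis) of the 9 listed receptor genes against hours with Wnt3a in the first WT series, 1 library for each point, FZD genes as solid and LRP genes as dashed lines. FZD7 went from 135.5 to 83.1, next to FZD5, which went from 38.0 to 86.4, while LRP6 stayed between 31.1 and 34.2.

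Each change in this series is log2 of RPKM plus 1 minus the same quantity in the 0 h library, with no test because there is no replicate. At 48 h, 3 of the 9 listed members were at least 2-fold higher, against 4.86% of all 10975 genes. The members were chosen with earlier results of these data known, so the distance from that share is not a test. The log2 change was 1.49 for FZD8, 1.16 for FZD5 and 1.12 for FZD4. None of the 9 was at least 2-fold lower, against 2.95% of all genes, and FZD7 had the lowest value of the 9 at -0.70. Values for the rest were 0.61 for FZD6, 0.29 for LRP5, 0.06 for FZD2, -0.02 for LRP6 and -0.24 for FZD3. The median change of the 9 members was 0.29, beside -0.003 over all genes. With a pseudocount of 5 the change of FZD4 was 0.78, under the 2-fold threshold, which leaves FZD5 and FZD8.

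Before 48 h no listed member passed a 2-fold difference in either direction, against 1.22% of all genes higher and 0.72% lower at 12 h, and 2.62% higher and 1.35% lower at 24 h. The changes of FZD7 at these times were -0.57 and -0.84 on the log2 scale. Among all genes, 4.05% had a change at 12 h as low as that of FZD7 or lower, and 2.24% did at 24 h. FZD8 stood at -0.69 at 12 h, where 2.31% of genes were as low or lower, and at 0.06 at 24 h. FZD5 stood at -0.22 and then -0.01. At 12 h the 2 members of the FZD5 and FZD8 subfamily were thus below their 0 h level, along with FZD7, while FZD4 (0.23) and FZD6 (0.18) were above theirs.

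RPKM is scaled to transcript length, so the levels of different FZD genes can be added. The 7 listed FZD genes summed to an RPKM of 217.2 before Wnt3a and to 167.2, 160.2 and 235.0 at the 3 later times. The sum at 48 h was 1.08 times that at 0 h, so the total at the end was close to that at the start although its makeup was not. FZD7 made up 62.4%, 54.5%, 47.1% and 35.4% of the FZD sum at the 4 times in order. FZD5 made up 17.5%, 19.4%, 23.5% and 36.8%. FZD8 went from 3.04% to 8.68% between 0 and 48 h, and FZD4 from 2.49% to 5.49%. By subfamily, FZD2 and FZD7 together went from an RPKM of 144.0 to 92.0, FZD5 and FZD8 went from 44.6 to 106.8, and FZD3 and FZD6 were at 23.2 and 23.3. The sum of LRP5 and LRP6 was 44.3 at 0 h and 46.2 at 48 h. In bulk RNA, fewer cells that carry a transcript and less of it in each cell cannot be told apart.

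**Figure D2:**
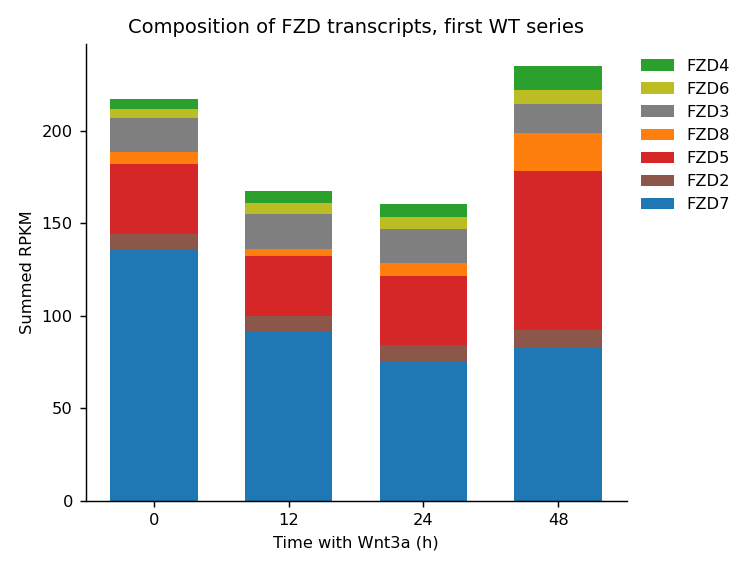
Summed RPKM of the 7 listed FZD genes at each time of the first WT series, 1 library for each bar, with the contribution of each gene as a block. The FZD7 block went from 62.4% to 35.4% of the bar and the FZD5 block from 17.5% to 36.8%, while the whole bar went from 217.2 through 160.2 to 235.0.

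The upstream sequences of the 3 genes that were at least 2-fold higher at 48 h are shown because SP5 binds GC-rich elements. RefSeq promoters (GRCh38.p14) were at hand for 5 of the 10 genes, FZD1, FZD4, FZD5, FZD8 and LRP5. Each run gives the 250 bases before the annotated start, 5′ to 3′ on the strand of the gene, and all 3 genes lie on the minus strand. FZD4 is read from chr11:86955396-86955645, FZD5 from chr2:207769907-207770156 and FZD8 from chr10:35642297-35642546. Capitals mark the GC box GGGCGG and its variant GGGAGG on either strand, where neighbouring matches may share bases.
FZD4: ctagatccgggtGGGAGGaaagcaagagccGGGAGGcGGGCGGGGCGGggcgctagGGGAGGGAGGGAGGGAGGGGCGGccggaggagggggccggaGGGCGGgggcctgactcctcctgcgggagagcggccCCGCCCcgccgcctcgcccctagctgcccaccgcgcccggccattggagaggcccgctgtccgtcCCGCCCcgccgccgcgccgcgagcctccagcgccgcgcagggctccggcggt
FZD5: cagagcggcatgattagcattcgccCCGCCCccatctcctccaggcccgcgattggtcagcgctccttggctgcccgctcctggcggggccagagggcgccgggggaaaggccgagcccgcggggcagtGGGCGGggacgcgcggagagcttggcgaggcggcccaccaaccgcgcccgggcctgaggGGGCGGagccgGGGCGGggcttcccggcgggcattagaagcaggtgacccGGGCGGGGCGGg
FZD8: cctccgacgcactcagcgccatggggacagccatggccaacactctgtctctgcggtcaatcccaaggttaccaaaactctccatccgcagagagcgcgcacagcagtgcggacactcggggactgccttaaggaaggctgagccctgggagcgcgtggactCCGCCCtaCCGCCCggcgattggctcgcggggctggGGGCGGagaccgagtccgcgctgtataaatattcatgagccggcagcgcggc
FZD4 holds 6 matches to GGGCGG and 6 to GGGAGG in this window, FZD5 holds 6 and 0, and FZD8 holds 3 and 0. Of 35116 RefSeq promoters of the same length, 42.6% hold GGGCGG and 45.6% hold GGGAGG, so a match is common. FZD1 has 1 match to GGGCGG and 2 to GGGAGG, and LRP5 has 3 and 4. The TCF/LEF letters CTTTGAT, sought on both strands, are in none of the 5 windows and in 2.26% of all promoters. The share of G and C was 80.8% in FZD4, 76.8% in FZD5 and 65.2% in FZD8.

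The question of whether SP5 lies near these genes can be put to the deposited ChIP-Seq peaks. Both peak lists were called by MACS on the same ChIP library from cells given Wnt3a, with 18641194 tags, once against a Wnt3a-treated control and once against a buffer-treated control. Neither list therefore holds SP5 signal of untreated cells, and the headers name the line as H9 where the labels give H1. None of the 10 members has a peak summit within 100000 bases of its start site when the Wnt3a-treated control is used, where 6.59% of 20176 annotated protein-coding genes do. With the buffer-treated control none of them has one either, against 6.05% of genes. At such shares a count of 0 among 10 genes is not a result about these genes. With the Wnt3a-treated control the nearest summit was 1.38 megabases from FZD5, 1.44 from LRP5, 2.22 from FZD2, 2.27 from FZD4, 2.89 from FZD8, 3.86 from FZD7, 4.31 from LRP6, 5.59 from FZD6, 5.74 from FZD1 and 7.09 from FZD3. Over all annotated genes the median distance was 1.39 megabases. With the buffer-treated control the distances were other ones, from 0.672 megabases for FZD6 and 1.58 for LRP6 to 11 for FZD7 and 16.8 for FZD5, and the other 6 members lay between 3.58 and 7.59, beside a median of 1.39 over all genes. Of the 540 peaks called with the Wnt3a-treated control 53 had a false discovery rate of at most 5%, and the peak nearest FZD8, at 2.17%, is the only one of the 10 nearest peaks among them. With the buffer-treated control the peak nearest FZD2 had a rate of 0%.

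The genes lie in hg19 as follows. FZD7 is a gene of 1 exon at chr2:202898578-202903164 on the plus strand, and FZD5 lies on the same chromosome, at chr2:208627322-208634630 on the minus strand, with 2 exons. FZD8 has 1 exon and lies at chr10:35927175-35931224 on the minus strand. FZD4 has 2 exons at chr11:86656721-86666437 on the minus strand. LRP5 and LRP6 each have 23 exons, at chr11:68080059-68216743 on the plus and chr12:12268959-12419978 on the minus strand.

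FZD5, FZD7 and FZD8 can be followed in WT Rep. 2 and in both SP5 mutant clones. In all 3 series FZD7 was lowest at 48 h and FZD5 and FZD8 were highest at 48 h. Over the 4 times FZD7 was at 1.00, 0.92, 0.91 and 0.61 of its maximum in WT Rep. 2. It stood at 1.13, 1.07, 0.94 and 0.64 in dZF1, and in dZF2 at 1.31, 1.15, 1.46 and 0.58. The 48 h values lie below all others of FZD7 in these 12 libraries, and the 24 h value of dZF2 lies above them all. FZD5 was at 0.52, 0.55, 0.61 and 1.00 in WT Rep. 2, at 0.41, 0.37, 0.53 and 1.09 in dZF1, and at 0.35, 0.33, 0.45 and 0.89 in dZF2. Its 48 h values lie above all others. FZD8 was at 0.62, 0.52, 0.55 and 1.00 in WT Rep. 2, at 0.52, 0.54, 0.66 and 2.38 in dZF1, and at 0.59, 0.31, 0.61 and 2.32 in dZF2. Through 24 h the 3 series of FZD8 stayed between 0.31 and 0.66, and at 48 h both clones were well above WT Rep. 2.

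**Figure D3:**
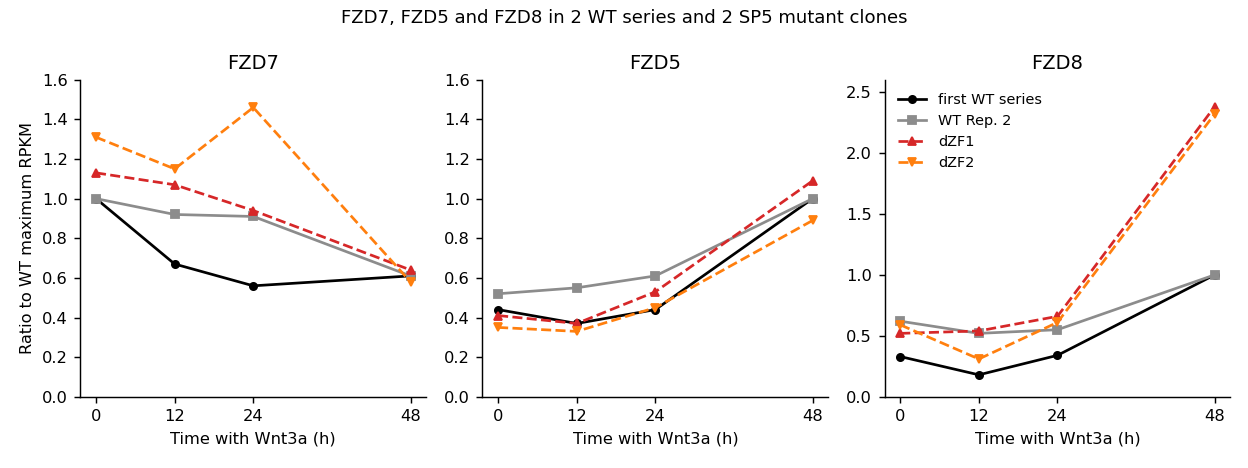
FZD7, FZD5 and FZD8 as a ratio to the WT maximum RPKM against hours with Wnt3a, 1 library for each point. The first WT series (black) is scaled to its own maximum and the other 3 series to the maximum of WT Rep. 2. For FZD8 the clones reach 2.38 and 2.32 at 48 h against 1.00 in WT Rep. 2, and for FZD7 all series end between 0.58 and 0.64.

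The time effect was tested with limma over WT Rep. 2, dZF1 and dZF2, with series as a block, all 497 genes in the fit and Benjamini-Hochberg adjustment over all of them. At 48 h FZD5 rose by a log2 change of 1.14 ± 0.17 (SE, n = 3 series, limma adjusted p = 0.00034). FZD8 rose by 1.54 ± 0.32 (SE, n = 3 series, limma adjusted p = 0.0021). The fit had terms for series and time only, so it did not separate the mutant clones from WT. For FZD8 the mean joins unlike changes, since dZF1 rose by 2.09 and dZF2 by 1.89, while WT Rep. 2 rose by 0.65. With WT Rep. 2 left out the FZD8 estimate was 1.99. FZD7 fell by 0.85 ± 0.18 on the log2 scale (SE, n = 3 series, limma adjusted p = 0.0025). Each change had the same direction in all 3 series. Of all genes selected for it, 56.1% rose and 20.3% fell at 48 h by the same rule, so a call is the usual outcome for a gene listed here. Leaving out dZF1 gave a change of 1.27 for FZD8 with an adjusted p of 0.051 in limma, just outside the threshold of 0.05, and the other calls at 48 h held with any series left out. The pluripotency marker SOX2 also fell at 48 h over these series, by 0.70 on the log2 scale (limma adjusted p = 0.026). In the first WT series the 6 pluripotency markers summed to an RPKM of 2107.7 at 0 h and 1551.2 at 48 h. SOX2 was at 238.3 and 105.5, DPPA4 at 328.9 and 206.5 and POU5F1 at 294.6 and 243.1. LIN28A, the largest part of the sum, was at 1014.1 and 784.7, TDGF1 at 228.5 and 208, and NANOG at 3.3 and 3.4. At 12 h POU5F1 was at 323.7, above its 0 h level. Of the 6 markers 1, SOX2, was at least 2-fold lower at 48 h. Their part in the FZD7 values was not tested.

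At 24 h the limma estimate was 0.29 ± 0.17 for FZD5 (SE, adjusted p = 0.25), 0.07 ± 0.32 for FZD8 (SE, adjusted p = 0.90) and -0.08 ± 0.18 for FZD7 (SE, adjusted p = 0.79). None of the 3 passed, where 18.9% of genes rose and 1.01% fell. At 12 h limma called 0 of 497 genes at an adjusted p under 0.05 and 29 at an unadjusted p under 0.05, and the estimates were -0.04 for FZD5, -0.34 for FZD8 and -0.12 for FZD7. The 95% interval for FZD7 ran from -0.54 to 0.29 at 12 h and from -0.49 to 0.34 at 24 h. The first WT series, which is not in this fit, gave FZD7 changes of -0.54 and -0.78 at these times on the same scale. The 24 h value lies below its interval, while the 12 h value cannot be told from the lower end of its own at the rounding of the data. The intervals are for the mean of the other series and not for a single one. In the other 3 series the FZD7 change at 24 h was -0.25 in dZF1, 0.15 in dZF2 and -0.13 in WT Rep. 2. The mesendoderm markers, as given above, were also nearer to their own maximum at 24 h in the first WT series than in WT Rep. 2, and their part in the FZD7 values was not tested.

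Each series was also compared with its own 0 h library, which brings in the first WT series, on the log2 scale of the ratio plus 0.05. At 48 h the change of FZD7 was -0.67 in both WT series, -0.77 in dZF1 and -1.11 in dZF2. For FZD5 it was 1.10 in the first WT series and 0.88 in WT Rep. 2, against 1.31 in dZF1 and 1.23 in dZF2. For FZD8 it was 1.47, 0.65, 2.09 and 1.89 in the same order. All 4 series had the same direction for each gene, and for each gene both clones lay further from 0 than both WT series. Among the 497 genes, both clones lay above both WT series in 15.9% and below both in 16.3%, so this ordering is frequent in the table. The gap between clones and WT, as a difference of mean log2 changes, was 0.93 for FZD8, 0.28 for FZD5 and -0.27 for FZD7. For FZD8 the 2 WT series themselves differed by 0.82 and the clones by 0.20. For FZD5 these differences were 0.22 and 0.08, and for FZD7 0.00 and 0.34.

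**Figure D4:**
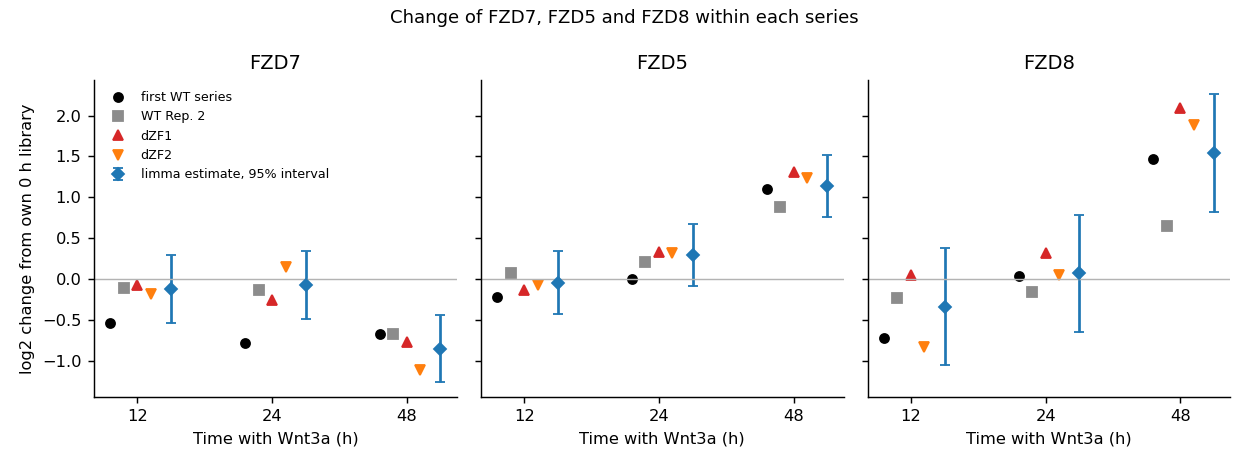
Change in log2 of the ratio plus 0.05 from the series' own 0 h library for FZD7, FZD5 and FZD8 at 12, 24 and 48 h. Points are single series and blue diamonds with bars are the limma estimate over WT Rep. 2, dZF1 and dZF2 with its 95% interval. At 48 h the bars lie below 0 for FZD7 and above 0 for FZD5 and FZD8, and at 12 and 24 h they cross 0 for all 3 genes.

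At matched times the clones were set against WT Rep. 2. No test was run at single times, where 2 clones face 1 WT library and an exact permutation test could not go below a p of 0.33. FZD8 was the 1 member with both clones at least 2-fold above WT Rep. 2, at 48 h, with a log2 ratio of 1.21 in dZF1 and 1.17 in dZF2. At that time 6.24% of genes met this rule. The same ratio of FZD8 was -0.23 and -0.07 at 0 h, 0.05 and -0.66 at 12 h, and 0.24 and 0.14 at 24 h. The definitive endoderm markers SOX17, FOXA2, CXCR4, GATA6 and HHEX, 5 of 5, moved with FZD8, with 48 h values in the clones between 1.98 and 5.56 times the WT Rep. 2 maximum, and their part in the FZD8 values was not tested.

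Against WT Rep. 2, the larger change of FZD5 in the clones came with a lower 0 h level in both clones. At 48 h FZD5 was above WT Rep. 2 in dZF1 only. Its log2 ratio to WT Rep. 2 was -0.31 in dZF1 and -0.51 in dZF2 at 0 h, -0.51 and -0.66 at 12 h, -0.19 and -0.40 at 24 h, and 0.12 and -0.16 at 48 h. Both clones were thus below WT Rep. 2 through 24 h, as were 42.5% of genes at 0 h, 43.3% at 12 h and 29.2% at 24 h, and at 48 h they lay on either side of it. FZD7 showed the reverse, with log2 ratios of 0.17 and 0.37 at 0 h, 0.21 and 0.31 at 12 h, 0.04 and 0.65 at 24 h, and 0.06 and -0.07 at 48 h. Both clones were above WT Rep. 2 in 33% of genes at 0 h, 36.6% at 12 h and 51.1% at 24 h. Over all genes the median absolute log2 difference between the clones was 0.21 at 48 h, larger than any FZD5 or FZD7 ratio at that time.

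Across the 12 libraries of WT Rep. 2, dZF1 and dZF2, FZD5 and FZD7 ran opposite to each other, with a Pearson r of -0.91 of log2 values. FZD5 and FZD8 had an r of 0.85, and FZD7 and FZD8 of -0.79. The libraries share a time course and 3 cell sources, so these are descriptions. The genes most like FZD5 were PGM1 (r = 0.978), a phosphoglucomutase, AHNAK (0.954), a large scaffold protein, and the growth factor TGFB1 (0.943). RPKM of PGM1 in the first WT series was 25.0 at 0 h and 101.7 at 48 h. That series was not used for the likeness, but it is no independent check. In it 84.7% of the 497 genes changed at least 2-fold at some time. Those most like FZD7 were VSIG10 (r = 0.953), the secreted protease ADAMTS8 (0.948) and the receptor tyrosine kinase ERBB2 (0.934). In the first WT series ERBB2 went from an RPKM of 160.4 at 0 h to 81.7 at 48 h, and ADAMTS8 from 5.9 to 0.7. Those most like FZD8 were LEPREL1 (r = 0.962), a collagen prolyl hydroxylase, RHOBTB3 (0.949) and the tryptophanyl-tRNA synthetase WARS (0.945). RPKM of LEPREL1 was 7.1 at 0 h and 28.9 at 48 h, of RHOBTB3 1.8 and 17.7, and of WARS 77 and 114.6.

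The receptors work among other proteins, and 56 of these were placed in 4 lists, of which 34 are listed in the first WT series. At 48 h 8 of the 34 were at least 2-fold higher and 1 was at least 2-fold lower, against 4.86% and 2.95% of all genes, and the median log2 change was 0.35. The lists were chosen with earlier results of these data known, so the distance from these shares is not a test of the pathway. In the list of other WNT receptors and coreceptors, which also holds SMO and CELSR3 beside WNT receptors, 2 of 8 listed genes were at least 2-fold higher. ROR2, a receptor tyrosine kinase that binds WNT5A, had an RPKM of 2.0, 3.8, 14.5 and 22.3 over the 4 times, and TSPAN12, a tetraspanin that aids FZD4, of 11.3, 17.9, 29.1 and 26.4. Over WT Rep. 2, dZF1 and dZF2 at 48 h, ROR2 rose by a log2 change of 2.22 (limma adjusted p = 0.0010). TSPAN12 rose there by 0.89 (limma adjusted p = 0.0020). By the same rule 56.1% of the 497 genes rose, all selected for a response to Wnt3a, so these calls are not independent evidence. TSPAN12 was ahead of its partner in time, at 2.58 times its 0 h level by 24 h, where FZD4 was at 1.31 times its own.

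The largest changes in these lists belonged to secreted or surface antagonists. Of these, 5 of 10 listed genes were at least 2-fold higher at 48 h, against 4.86% of all genes. DKK1, which binds LRP5 and LRP6 and blocks them, went from an RPKM of 0.6 at 0 h to 14.3 at 24 h and 69.5 at 48 h. DKK4, of the same family, is listed at 0 at 0 h and had an RPKM of 29.6 at 24 h and 20.4 at 48 h. CER1, a secreted inhibitor of NODAL and BMP that the list also holds, went from 1.8 to 634.0. The surface inhibitor APCDD1 went from 1.1 to 19.8, and FRZB, a secreted FZD-like decoy, from 1.6 to 4.8. DKK1, DKK4, CER1 and APCDD1 rose at 48 h over the 3 series of the mutant table, with limma adjusted p between 2.1e-05 and 0.00045. So did 56.1% of the 497 genes, which were selected for a response to Wnt3a. SFRP1, another FZD-like decoy, fell there by 0.76 on the log2 scale (limma adjusted p = 0.0053), where 20.3% of genes fell. Its RPKM of 286.9 at 0 h was above that of every FZD, and it was 173.1 at 48 h. SFRP2, also above every FZD at 0 h, had an RPKM of 245.9 and then 165.1 at 48 h.

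Of the genes that act at the receptor inside the cell, all 15 are listed, and 13 differed less than 2-fold between 0 and 48 h in the first WT series. SHISA2, which holds FZD proteins back from the surface, is among these 13 but moved between those times, with an RPKM of 36.1, 13.1, 7.0 and 55.5. Over the 3 series of the mutant table SHISA2 fell at 24 h by 0.99 on the log2 scale (limma adjusted p = 0.020), where 1.01% of the 497 genes fell. It rose at 48 h by 1.11 (limma adjusted p = 0.0018), where 56.1% rose. Its relative SHISA3 went from an RPKM of 4.1 to 0.8 at 24 h, and was at 5.7 by 48 h. CAPRIN2, which binds LRP6, went from an RPKM of 9.9 to 21.4 in the first WT series, but its change over the other 3 series was 0.07 (limma adjusted p = 0.80). TMEM198, a membrane protein that aids LRP6 phosphorylation, went from 5.8 to 1.6. The receptor turnover list, which holds the ligases RNF43 and ZNRF3, the LGR receptors and the R-spondins, has 1 of 9 genes in the table, LGR4, with an RPKM of 30.2 at 0 h and 19.1 at 48 h.

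**Figure D5:**
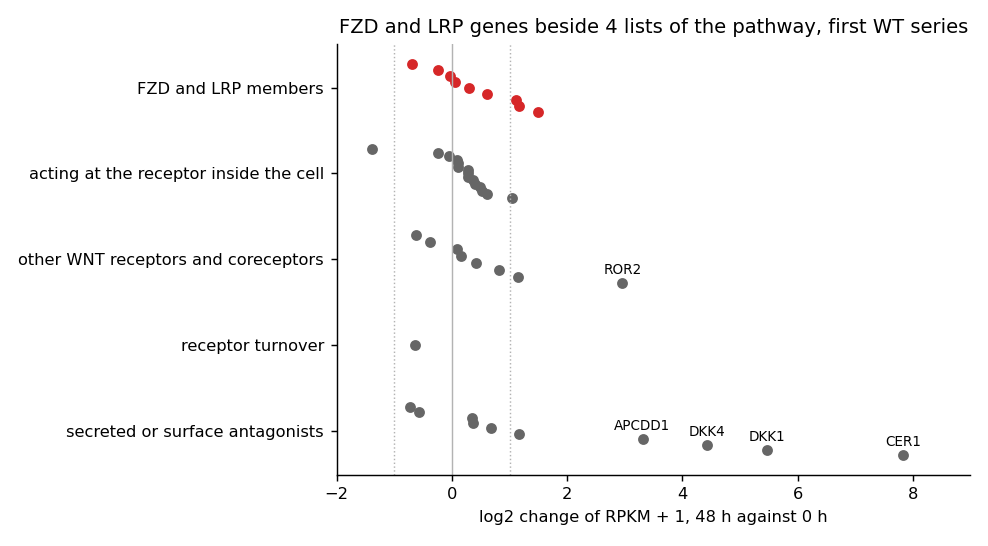
Change at 48 h in log2 of RPKM plus 1 in the first WT series for the 9 listed FZD and LRP genes (red) and for the listed genes of 4 lists of the pathway (grey), each point 1 gene in 1 pair of libraries. Dotted lines mark 2-fold. The receptor genes lie between -0.70 and 1.49, and the named points beyond a log2 change of 2 are ROR2, APCDD1, DKK4, DKK1 and CER1.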

How the data were processed

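RNA-Seq values were taken from the authors' tables, with samples grouped by their labels. Per the labels and the study's methods, ribosomal RNA was removed, reads were mapped to hg19 with TopHat and the authors calculated RPKM with Cuffdiff. The submitters' processing notes also name Bowtie 0.12.7, SAMtools 0.1.12a and MACS 1.4.2. The deposited RPKM are rounded to 1 decimal. The deposited fraction of the maximum (first WT series) and the deposited ratio to the WT Rep. 2 maximum are rounded to 2 decimals. No counts were at hand, so depth is unknown. The p-values rest on the scatter of single libraries left after series and time are fitted. That scatter includes any difference in response between the clones and WT. Peak lists give deposited counts of tags, a score, a fold enrichment and, in percent, a false discovery rate. Columns that no sample could be matched to numbered 0. A table that repeats the first 1000 genes, and the paper's own supplementary tables, were not used here.

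Changes used log2 of RPKM plus 1 or of the ratio plus 0.05. limma 3.58.1 in R 4.3.3 fitted series and time to the 497 genes, and was tested on simulated data. Start sites were the GENCODE 44 gene ends on GRCh37. Promoters came from RefSeq (GRCh38.p14), and the missing ones are FZD2, FZD3, FZD6, FZD7 and LRP6. Named were all members, for each member in the mutant table the 3 genes with the highest Pearson r, genes of the pathway lists changed at least 2-fold at 48 h, SP5 and markers. SFRP1, SFRP2, LGR4, SHISA2 and SHISA3 were named after their values were seen. The members and lists were chosen with earlier results of these data known. The comparison of both clones with both WT series was added after seeing the data. Tables were handled in pandas 2.3.3 (Python 3.11.15) and drawn with matplotlib 3.10.9.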

Additional observations from a re-analysis of the deposited data

How the results depend on the processing

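Of 54 recomputed changes of members in the first WT series (pseudocounts of 0.1 and 5), 53 kept their direction where called and their side of the 2-fold threshold, the exception being FZD4 with a pseudocount of 5. Of 63 recomputed time effects of FZD5, FZD7 and FZD8, 62 kept their side of the threshold, the exception being FZD8 at 48 h without dZF1. All 57 recomputed clone ratios kept their side of the 2-fold threshold, but only FZD8 at 48 h was past it, so little could change. That ratio stayed between 1.09 and 1.34 on the log2 scale. Signs of some smaller log2 ratios did change. After scaling to the 0 h values, FZD5 at 24 h went from -0.29 to 0.12 and FZD7 at 12 h from 0.26 to -0.01. FZD8 at 12 h went from -0.31 to 0.05 with dZF2 left out. The number of members changed at least 2-fold at 48 h was 3, and 5 with a fold threshold of 1.5. Over all genes the number was 857, and 342 with a pseudocount of 5, 2133 with a fold threshold of 1.5 and 479 among genes with a highest RPKM of at least 10. The limma count at 48 h was 380, ranged from 263 to 380 with 1 series left out, and was 349 with no replicate block. No member had a peak within 50000 or 200000 bases, nor among peaks with a false discovery rate of at most 5%. With Spearman correlation 1 of the 3 genes most like FZD5 and 1 of the 3 most like FZD8 stayed, and 2 of 3 for FZD7. Single libraries, unknown depth and rounding limit all values.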
